A study of Mus musculus with 14 samples.

Results

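The translation initiation factors are the proteins that bring the small ribosomal subunit, the initiator methionyl-tRNA and an mRNA together and set the ribosome on the start codon. Their genes were taken as all probe sets whose platform annotation gave exactly 1 gene symbol starting with Eif1 to Eif6, leaving out the Eif2ak kinases, with the brightest probe set used for each gene. This gave 47 genes from 51 probe sets, out of 22180 genes measured. The rule is one of names, so it also took Eif2c5, an older symbol of the Argonaute family, and the pseudogene Eif1-ps3. Eif1, Eif2s1, Eif2s3x, Eif3g, Eif3j2, Eif4g1 and Eif4ebp3 had no probe set of their own under this rule and were not analysed here.

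Livers of 14 male C57BL/6J mice, an inbred strain, were profiled on Affymetrix whole-transcript arrays. By their titles, mice 1, 2, 3, 5, 6, 10 and 13 form the sleep-deprived group. The 7 controls are mice 4, 7, 8, 9, 11, 12 and 14. The series title gives a single deprivation of 6 h, and of the methods listed in the design text (gentle handling, cage changes or a platform in water) the labels do not say which preceded the arrays. No genotype, transgene or drug is named for either group, and neither age, feeding state nor time of collection is given. Values are log2 expression per probe set, so a difference of 1 is a doubling, and array medians lay between 3.44 and 3.49. The labels do not state that each numbered sample is a separate mouse. Each is taken here as 1 mouse, and p-values set the difference between the groups against the spread between these samples.

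Initiation runs through the complexes in turn. eIF2 carries the initiator tRNA and GTP to the small subunit and is recharged by the exchange factor eIF2B. eIF1, eIF1A, eIF3 and eIF5 hold that subunit in a scanning state, and eIF4F, built from the cap-binding eIF4E, the scaffold eIF4G and the helicase eIF4A, recruits the capped mRNA. The 2 best known controls are phosphorylation of eIF2, which blocks its exchange in the integrated stress response, and the 4E-BP proteins, which hold eIF4E until the nutrient-sensing kinase complex mTORC1 phosphorylates them. Both act on proteins, which the arrays do not measure.

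Upstream sequences are shown as examples for 3 members with 1 annotated start site and no other gene over the window. The motifs marked in them were found in a minority of members, as counted below. Each is the 250 bases before the start site in RefSeq's GRCm38.p6 annotation, 5′ to 3′ along the gene. Capitals mark the E-box CACGTG, which MYC and the clock activators CLOCK and BMAL1 bind, and TATAAA, the letters of the TATA box, on either strand. Eif3b is a member past the threshold, and Eif4a1 and Eif3f are members with an E-box. Not shown is Eif4h, a further E-box gene that met the same conditions. Eif1a, the other member past the threshold, is not shown either, and its window was not checked against these conditions. The choice of examples left out 1 chromosome.
Eif3b (chr5:140419055-140419304, plus strand): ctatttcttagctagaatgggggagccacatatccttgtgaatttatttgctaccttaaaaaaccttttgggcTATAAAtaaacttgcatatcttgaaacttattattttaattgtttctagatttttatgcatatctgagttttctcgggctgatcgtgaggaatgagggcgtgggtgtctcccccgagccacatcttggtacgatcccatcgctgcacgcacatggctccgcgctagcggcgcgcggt
Eif4a1 (chr11:69672424-69672673, minus strand): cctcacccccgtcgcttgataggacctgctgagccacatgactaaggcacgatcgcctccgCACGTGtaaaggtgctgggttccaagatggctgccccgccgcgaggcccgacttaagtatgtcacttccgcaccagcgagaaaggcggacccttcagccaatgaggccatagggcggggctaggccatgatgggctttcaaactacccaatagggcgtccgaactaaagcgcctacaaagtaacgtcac
Eif3f (chr7:108934165-108934414, plus strand): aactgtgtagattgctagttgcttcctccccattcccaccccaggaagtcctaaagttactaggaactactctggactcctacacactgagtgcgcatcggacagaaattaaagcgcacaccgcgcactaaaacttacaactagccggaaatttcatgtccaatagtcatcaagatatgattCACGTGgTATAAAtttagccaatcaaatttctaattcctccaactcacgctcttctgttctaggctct

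The E-box of Eif4a1, the helicase subunit, began 189 bases before the start site, and that of Eif3f 68 bases before it. In Eif3f the letters TATAAA began 61 bases before the start, just behind the E-box, and in Eif3b they began 177 bases before it. RefSeq sequences matched 36 of the 47 members, and 12 motifs were searched on both strands of the 250 bases before any annotated start. The E-box was found in 8 of the 36 (22.2%): Eif1b, Eif3f, Eif3k, Eif4a1, Eif4e, Eif4h, Eif5a and Eif5a2. It was found in 6.86% of all 27025 genes with a promoter sequence, and in 10.2% of the 8766 among these whose mean level was at or above the median of the genes measured (the brighter genes below). None of the 8 E-box genes passed the test between groups described next, which 8.50% of all genes passed. With so few genes this says nothing about the E-box.

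The ETS motif CCGGAAG stood in 11 of 36 members (30.6%, against 7.83% of all genes and 14.9% of the brighter ones), and in its longer form CCGGAAGT in 5 (13.9%, 3.23% and 6.46%). The GC box GGGCGG stood in 26 (72.2%, 35.4% and 62.9%) and TGACGT, the core of the cyclic AMP response element, in 8 (22.2%, 7.29% and 11.4%). The longer palindrome TGACGTCA was in 0 (1.77% of all genes and 2.89% of the brighter ones), as was TGATGNAA, the element that ATF4 binds with C/EBP partners (3.91% and 2.57%), and the ZBTB33 motif (0.448% and 0.901%). CCAAT was in 12 (33.3%, 37.5% and 39.3%) and TATAAA in 3 (8.33%, 14.3% and 8.49%). The NRF1 motif GCGCATGCG was in 2 (5.56%, 1.64% and 3.39%) and the ZNF143 motif in 3 (8.33%, 1.92% and 4.36%). Genes with several start sites had more sequence searched, and a match of letters is a description that does not show binding.

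Of the 47 initiation factor genes, 2 were higher in the sleep-deprived mice and 0 lower (limma, adjusted p under 0.05 over all genes). They were Eif1a, which encodes the scanning factor eIF1A, at 1.27-fold, and Eif3b, which encodes a core scaffold subunit of eIF3, at 1.14-fold. That is 4.26% of the members, and over all 22180 genes 8.50% were called, 3.88% higher and 4.62% lower. The share of members rests on 2 genes, and the count higher ran from 1 to 5 under the other settings. At an unadjusted p under 0.05 there were 13 members, 12 of them higher and 1 lower, or 27.7% beside 19.4% of all genes. Most members, 43 of 47, were among the 11090 brighter genes, of which 1779 were called. Of these 43 members 4.65% were called, and 30.2% had an unadjusted p under 0.05, beside 32.1% of the brighter genes.

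The differences of the family were small and lay more often above 0 than below. The log2 difference, sleep-deprived minus control, was positive in 33 members and negative in 14, with a median of 0.058 and a range from -0.20 (Eif4e3) to 0.35 (Eif1a). Over all genes 48.4% were positive and the median was -0.0048. The median size of a difference regardless of sign was 0.089 in the family and 0.077 over all genes. Centring the arrays left 33 members positive, and a further quantile normalization gave 34.

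The intervals give a range for the difference of each member on its own, and do not hold for all 45 at once. For each of the 45 members not called, the 95% interval of the difference lay within 1.5-fold in either direction, and for 34 of them within 1.2-fold. The widest reach was that of Eif2b4, up to 1.36-fold. The 45 include Eif4e1b, Eif5a2, Eif2c5 and Eif4a3l1, whose mean levels lay under the array medians. A narrow interval there does not bound a change, as it is not known whether these were above background. SDs within a group ran from 0.045 for Eif3i in controls to 0.41 for Eif3j1 in controls, where mice 9 and 12 were low and mice 7 and 8 high.

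**Figure D1:**
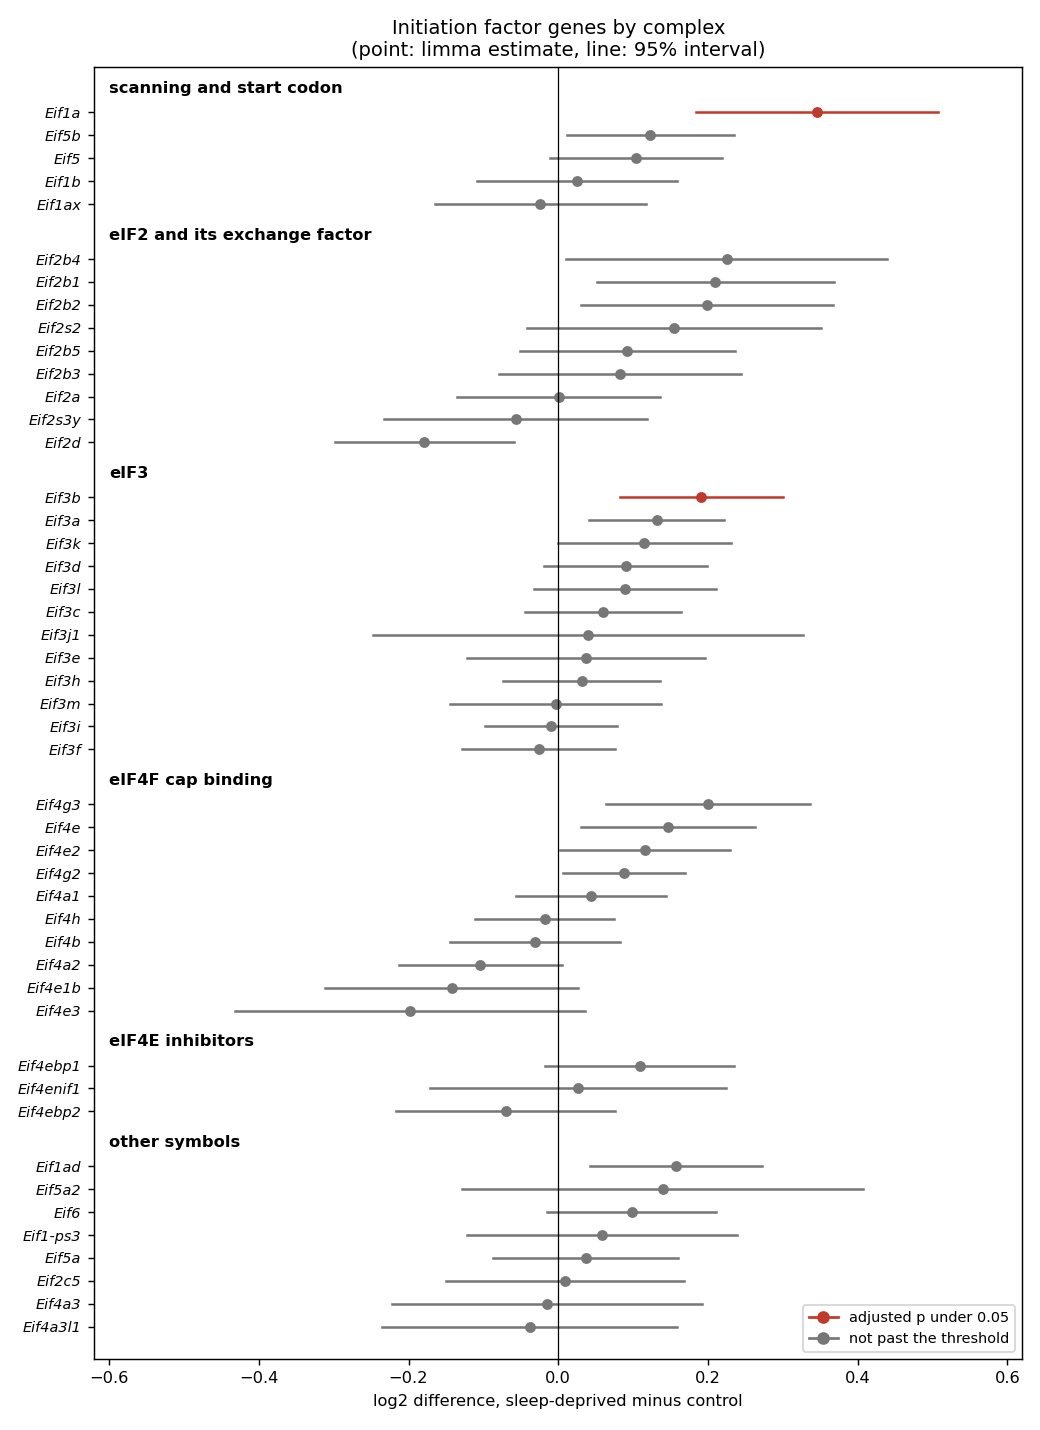
Log2 difference (sleep-deprived minus control) of each of the 47 initiation factor genes, grouped by complex; points are limma estimates from 7 mice a group, lines their 95% intervals, and red marks an adjusted p under 0.05. Eif1a at 0.35 and Eif3b at 0.19 are the 2 members past the threshold, and most points lie to the right of 0.

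Among the scanning and start codon factors, Eif1a (probe set 17350356) was the member with the largest difference. eIF1A binds the small subunit at the site where the start codon is decoded and helps scanning. Its log2 level ran from 6.44 through a median of 6.76 to 6.89 in controls and from 6.89 through 7.02 to 7.28 after sleep deprivation. The lowest deprived mouse, mouse 3, lay just above the highest control, mouse 8, so the groups did not overlap, which 3.13% of all genes also showed. The group means were 6.69 ± 0.16 and 7.04 ± 0.14 (SD, n = 7 each). The log2 difference was 0.35 ± 0.077 (limma's moderated SE, adjusted p = 0.00651).

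Eif1ax, the X-linked relative that encodes a closely similar eIF1A protein, did not follow. Its level ran from 7.28 through 7.36 to 7.57 in controls and from 7.18 through 7.35 to 7.64 after deprivation, so the deprived mice extended past the controls at both ends. The difference was -0.024 ± 0.068 (limma, adjusted p = 0.911). Eif5b, the GTPase that joins the ribosomal subunits, was at 0.12 ± 0.053 (limma, adjusted p = 0.194). Eif5, which makes eIF2 hydrolyse its GTP, was at 0.10 ± 0.055 (adjusted p = 0.325), and Eif1b, a relative of the start codon guardian eIF1, at 0.025 ± 0.064 (adjusted p = 0.898). All 7 deprived mice were above the control mean in Eif5 and 6 in Eif5b.

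The unequal behaviour of related genes was compared within each mouse, as the log2 difference between both genes. The 7 pairs were listed after the values were seen, so their p-values describe these data and are not independent support. An exact two-sided permutation test over all 3432 splits into 7 and 7 was used. Eif1a against Eif1ax differed between the groups by 0.37 ± 0.095 (SE, n = 7 each; exact p = 0.00291, adjusted over the 7 pairs p = 0.0204), with all 7 deprived mice above the control mean. Whether probes of either gene also read the transcripts of the other was not tested. Eif4ebp1 against Eif4ebp2 differed by 0.18 ± 0.061 (exact p = 0.00991, adjusted p = 0.0347), again in 7 of 7 mice, and lost its call without control mouse 4, 7, 8 or 11 or sleep-deprived mouse 1, 3, 5, 10 or 13 (adjusted p up to 0.0836).

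The other 5 pairs did not pass. Eif4a1 against Eif4a2 was at 0.15 ± 0.061 (exact p = 0.0350, adjusted p = 0.0683) and Eif4e against Eif4e3 at 0.34 ± 0.15 (exact p = 0.0390, adjusted p = 0.0683). They passed without sleep-deprived mouse 6 (adjusted p = 0.0177) and without control mouse 9 (adjusted p = 0.0265), respectively. With probe sets averaged, the first was at 0.026 (exact permutation, adjusted p = 0.686). Eif4g2 against Eif4g3 was at -0.11 ± 0.079 (exact permutation, adjusted p = 0.258), Eif4e against Eif4e2 at 0.030 ± 0.061 and Eif5a against Eif5a2 at -0.10 ± 0.17 (exact permutation, adjusted p = 0.615 for both).

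**Figure D2:**
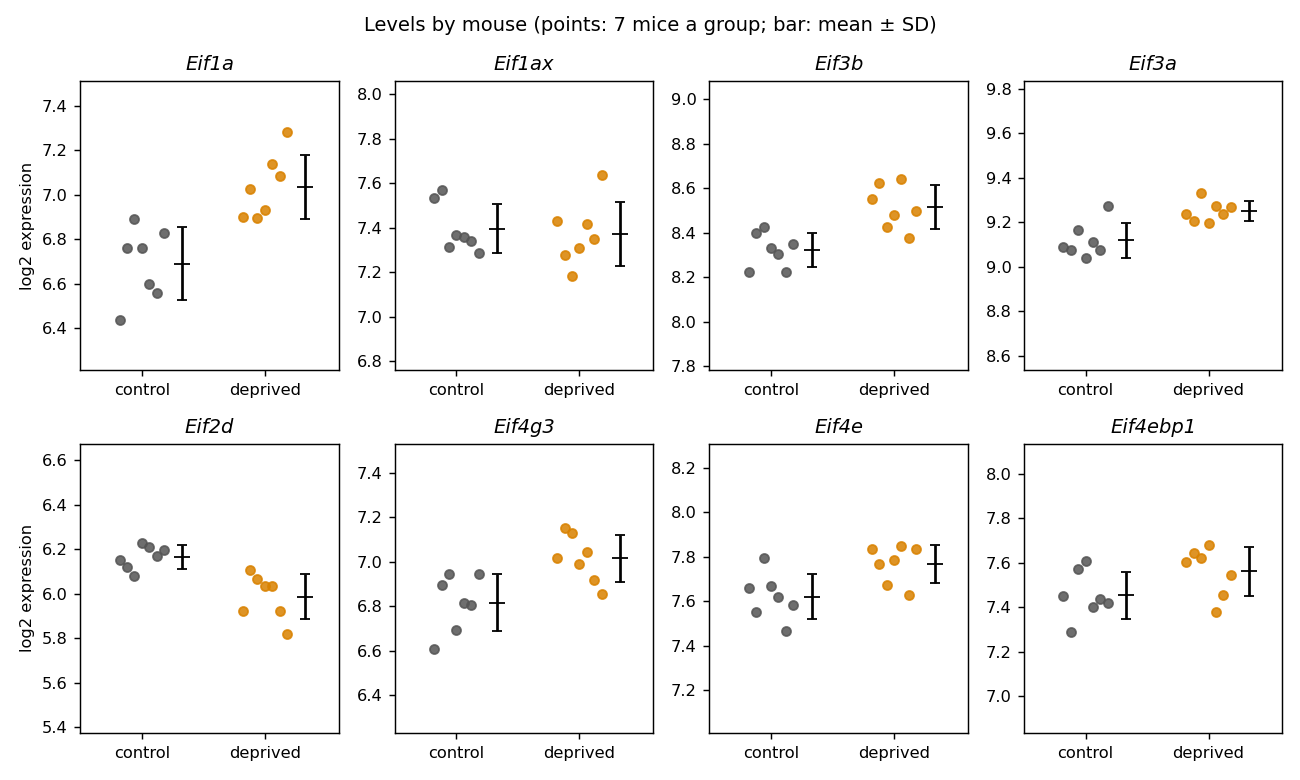
Log2 expression of 8 initiation factor genes in each mouse (grey, control; orange, sleep-deprived; 7 mice a group, in order of mouse number), with the mean and SD as a bar; every panel spans 1.3 log2 units. In Eif1a the lowest deprived mouse (6.89) lies just above the highest control (6.89), and in Eif1ax the deprived mice (7.18 to 7.64) extend past the controls (7.28 to 7.57) at both ends.

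Of the 9 genes of eIF2, its exchange factor and related tRNA carriers, 0 passed (limma; 4 at an unadjusted p under 0.05). The 5 subunit genes of eIF2B, the exchange factor that phosphorylated eIF2 inhibits, all had positive differences, with intervals that do not show whether they differ from each other. Eif2b4, at 0.22 ± 0.10 (limma, adjusted p = 0.228), and Eif2b1, at 0.21 ± 0.076 (adjusted p = 0.101), had all 7 deprived mice above the control mean. Levels of Eif2b1 ran from 5.87 through 6.15 to 6.33 in controls and from 6.17 through 6.37 to 6.52 after deprivation, and 2 controls lay above the lowest deprived mouse. In Eif2b4 the control mouse 12, at 4.21, was the lowest of all, and the next control was at 4.66. Eif2b2 was at 0.20 ± 0.081, Eif2b5 at 0.092 ± 0.069 and Eif2b3 at 0.083 ± 0.077 (limma, adjusted p between 0.159 and 0.653).

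Eif2s2, the beta subunit of eIF2, was at 0.16 ± 0.094 (limma, adjusted p = 0.416), and Eif2s3y, the Y-linked gene of the gamma subunit, at -0.057 ± 0.084 (adjusted p = 0.807). Eif2a, which can bring initiator tRNA without GTP, was at 0.00047 ± 0.065 (adjusted p = 0.998). Eif2d, which acts in non-canonical initiation and in recycling of ribosomes, had the lowest adjusted p among the members with a negative difference. Its levels ran from 6.08 through 6.17 to 6.23 in controls and from 5.82 through 6.03 to 6.11 after deprivation. All 7 deprived mice lay below the control mean, and 1 control lay under the highest deprived mouse. The difference was -0.18 ± 0.057 (limma, adjusted p = 0.0594), which passed without sleep-deprived mouse 2 (adjusted p = 0.0401).

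In eIF3, the large scaffold that binds the small subunit and bridges it to eIF4F, 1 of 12 subunit genes passed, beside 8.50% of all genes. Eif3b (probe set 17444080) ran from 8.22 through 8.33 to 8.42 in controls and from 8.38 through 8.50 to 8.64 after deprivation. All 7 deprived mice were above the control mean, but 2 controls lay above the lowest of them, mouse 10. The means were 8.32 ± 0.079 and 8.51 ± 0.099 (SD, n = 7 each). The difference was 0.19 ± 0.052 (limma, adjusted p = 0.0248). Leaving out control mouse 4 or 12 or sleep-deprived mouse 1, 2 or 6 ended this call (adjusted p up to 0.0556), as did the fit without the trend and that with the mouse number as a covariate.

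Eif3a, the largest subunit and partner of Eif3b in the core, was at 0.13 ± 0.043 (limma, adjusted p = 0.0674), and passed without control mouse 14. Its levels ran from 9.04 through 9.09 to 9.27 in controls and from 9.20 through 9.24 to 9.33 after deprivation, and control mouse 14 was the 1 control above the lowest deprived mouse. The other 10 subunit genes lay between -0.026 (Eif3f) and 0.12 (Eif3k). Next to Eif3k came Eif3d (0.090), a subunit that can itself bind the cap, Eif3l (0.089) and Eif3c (0.060). Eif3j1 (0.040), Eif3e (0.037), Eif3h (0.031), Eif3m (-0.0036) and Eif3i (-0.0099) lay close to 0. Eif3i, part of the core with Eif3b, had SDs of 0.045 and 0.050 and a 95% interval of the log2 difference from -0.098 to 0.078.

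Of the 10 genes of the cap-binding group eIF4F and its helpers, 0 passed (limma), beside 8.50% of all genes. An unadjusted p under 0.05 was seen in 4, each with a positive difference. Such a p was found in 19.4% of all genes and 32.1% of the brighter ones. Eif4g3, a scaffold that joins eIF4E, eIF4A and eIF3, ran from 6.61 through 6.81 to 6.95 in controls and from 6.85 through 7.02 to 7.15 after deprivation. The difference was 0.20 ± 0.065 (adjusted p = 0.0655), with all 7 deprived mice above the control mean and 3 controls above the lowest of them. It passed without control mouse 14 or sleep-deprived mouse 13. Eif4e, the cap-binding protein itself, was at 0.15 ± 0.056 (limma, adjusted p = 0.127), from 7.47 to 7.79 in controls and from 7.63 to 7.85 after deprivation. Eif4e2, a cap-binding repressor of translation, was at 0.12 ± 0.054 and Eif4g2, a scaffold that lacks the eIF4E site, at 0.088 ± 0.039 (limma, adjusted p = 0.245 and 0.206).

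The helicase gene Eif4a1 was at 0.044 ± 0.048 and its relative Eif4a2 at -0.10 ± 0.052 (limma, adjusted p = 0.710 and 0.287). Both dimmer probe sets of Eif4a2 went the other way, 17324396 at 0.18 ± 0.086 and 17324400 at 0.096 ± 0.076, and none of the 3 passed. With its probe sets averaged, the gene was at 0.057 (limma, adjusted p = 0.707), so its direction rests on the probe set chosen. For Eif4a1 the dimmer probe set 17264844 was also positive, at 0.12 ± 0.054 (limma over all probe sets, adjusted p = 0.208). The size of its difference thus also depends on the probe set. Eif4b and Eif4h, which stimulate the helicase, were at -0.031 and -0.018. Eif4e3, a cap-binding relative of eIF4E, was at -0.20 ± 0.11 (limma, adjusted p = 0.368), with all 7 deprived mice below the control mean. The germline form Eif4e1b had mean levels of 2.15 and 2.01, under the median of every array. Whether it was above background is not known, as the table holds no detection calls.

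Of the 3 genes of eIF4E inhibitors measured, 0 passed (limma; 0 at an unadjusted p under 0.05). Eif4ebp1, like Eif4ebp2, encodes a 4E-BP that mTORC1 controls. Levels of Eif4ebp1 ran from 7.29 through 7.44 to 7.60 in controls and from 7.38 through 7.60 to 7.68 after deprivation. The difference of Eif4ebp1 was 0.11 ± 0.060 (limma, adjusted p = 0.361), with a 95% interval from -0.018 to 0.24. Eif4ebp2 was at -0.070 ± 0.070 and Eif4enif1, which carries eIF4E into the nucleus and represses bound mRNAs, at 0.026 ± 0.095.

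The remaining 8 symbols held 0 calls (limma; 1 at an unadjusted p under 0.05). That one was Eif1ad, which encodes a protein related in sequence to eIF1A, at 0.16 ± 0.055 (adjusted p = 0.0890), higher in 7 of 7 deprived mice. Eif6, which keeps the ribosomal subunits apart and takes part in making the large one, was at 0.098 ± 0.054 (adjusted p = 0.351). Eif5a, the factor that carries the modified residue hypusine and helps ribosomes over difficult peptide bonds, was at 0.037 ± 0.059. Eif4a3, the helicase of the exon junction complex, was at -0.015 ± 0.099. Eif5a2, Eif1-ps3, Eif2c5 and Eif4a3l1 lay between -0.038 and 0.14, and of these Eif5a2, Eif2c5 and Eif4a3l1 had mean levels under the array medians.

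Single mice differed in how far the whole family lay from the control mean. The median deviation over the 47 members ran from -0.047 (mouse 12) to 0.046 (mouse 14) in controls and from 0.022 (mouse 10) to 0.098 (mouse 6) in deprived mice. Mice 3 and 10, at 0.027 and 0.022, thus lay inside the range of the controls, and the other 5 deprived mice above it. All 7 deprived mice were above the control mean in 12 of the 47 members, and all 7 below it in 3 (Eif2d, Eif4e3 and the dim Eif4e1b). Over all genes, 8.58% had all 7 above and 9.95% all 7 below. Shares for the brighter genes alone, to which 43 of the 47 members belong, were not computed. Whether the family stands apart from genes of like level in this was thus not tested.

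**Figure D3:**
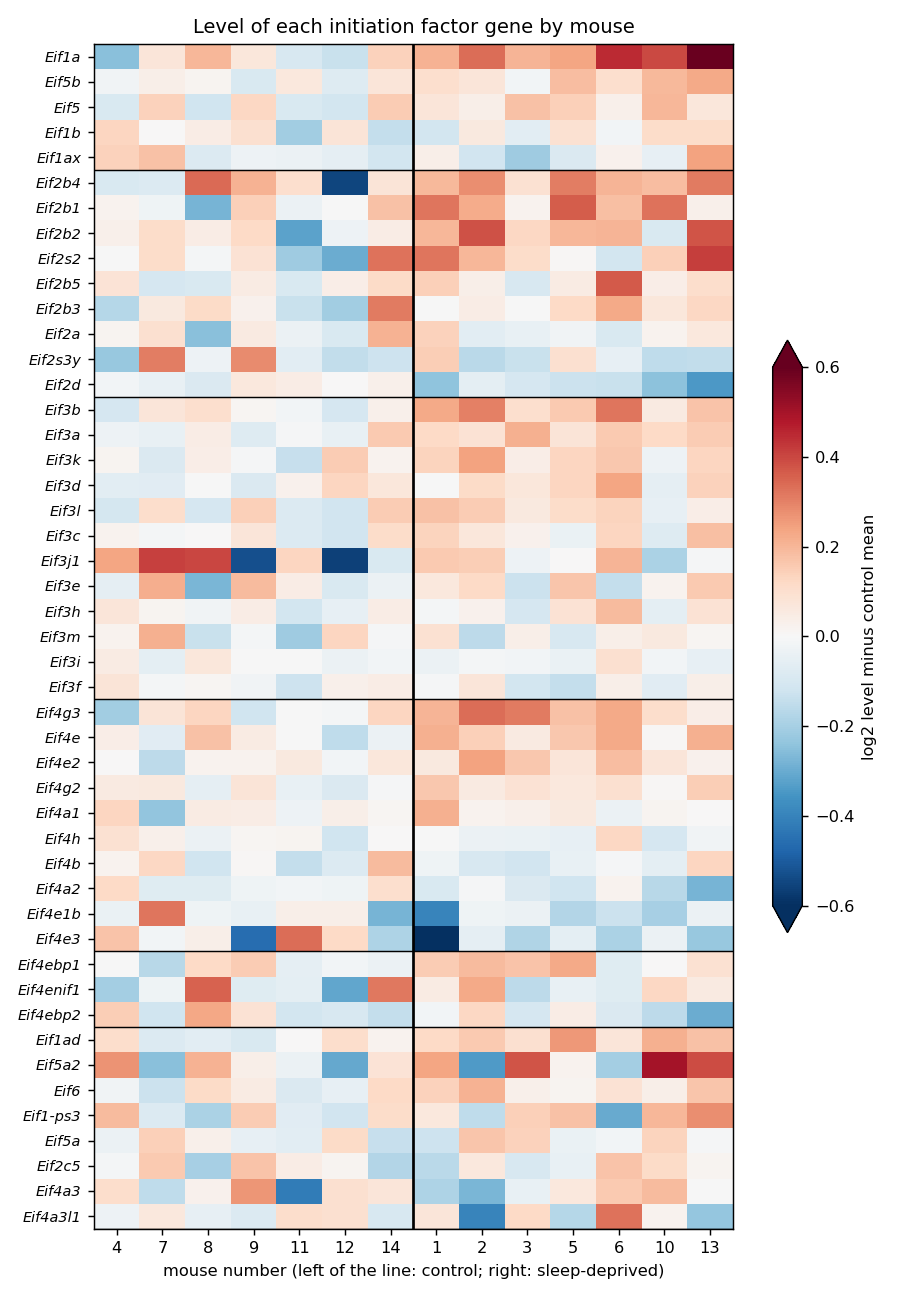
Log2 level of each of the 47 initiation factor genes (rows, ordered by complex and difference, lines between complexes) in each mouse (columns) minus the gene's mean over the 7 controls; red is higher and blue lower, and the colour scale ends at 0.6 in either direction. Eif1a is red in all 7 deprived mice, and Eif3j1 varies most among the controls.

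Other genes of translation were counted from a list of 55, of which 53 were measured. Of these, 6 rose and 1 fell at the same threshold (limma), or 7 of 53 beside 8.50% of all genes, with a median log2 difference of 0.045. The list was drawn up with earlier results of these data known, among them those of Ddit4 and Dnajc3. Ddit4, an inhibitor of mTORC1, ran from 4.30 to 5.43 in controls and from 6.14 to 7.36 after deprivation, at 2.10 ± 0.19 (adjusted p = 8.03e-07). It was the 1 of 15 mTORC1 genes that passed. Mtor was at -0.15 ± 0.053 (adjusted p = 0.108), Deptor at -0.13 ± 0.047 (adjusted p = 0.103), the activator Rheb at 0.14 ± 0.053 (adjusted p = 0.128) and Larp1, which represses the translation of ribosomal protein mRNAs, at 0.12 ± 0.053 (adjusted p = 0.185).

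Among 9 genes that set the phosphorylation of eIF2, 1 rose: Dnajc3, which encodes an inhibitor of eIF2 kinases and co-chaperone of the endoplasmic reticulum, at 0.29 ± 0.059 (limma, adjusted p = 0.00291). The 4 kinase genes Eif2ak1, Eif2ak2, Eif2ak3 and Eif2ak4 lay between -0.15 and 0.045, with no call (lowest adjusted p = 0.232). Ppp1r15a, which brings a phosphatase to eIF2 under stress, was at 0.21 ± 0.075 (adjusted p = 0.107), higher in 7 of 7 deprived mice.

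Around the end of a round of translation, Abce1, which splits ribosomes for the next round, rose by 0.27 ± 0.060 (limma, adjusted p = 0.00550). Its levels ran from 8.66 through 8.83 to 8.99 in controls and from 8.90 through 9.12 to 9.22 after deprivation. The release factor gene Etf1 rose by 0.19 ± 0.051 (adjusted p = 0.0250) and Paip1, a partner of poly(A)-binding protein and eIF4A, by 0.18 ± 0.053 (adjusted p = 0.0427). Single mice decided both calls: without 1 mouse at a time, Etf1 lost its call for control 4, 8, 11 or 12 and sleep-deprived 1 or 13 (adjusted p up to 0.0628). Paip1 kept its call without control 7 or 9 or sleep-deprived 2, and lost it for the other 11 mice (adjusted p up to 0.0992). Both also lost the call with eBayes without the trend (adjusted p = 0.0600 for Etf1 and 0.0769 for Paip1). Paip1 lost it too with the arrays centred on their median (0.0507) and with the mouse number as a covariate (0.0512). Of the 3 genes of mitochondrial initiation and the 2 MNK kinases of eIF4E, 0 passed (limma; 0 at an unadjusted p under 0.05).

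In elongation, Eef1e1, a scaffold protein of the tRNA synthetase complex, rose by 0.46 ± 0.088 (limma, adjusted p = 0.00168), from 6.89 to 7.50 in controls to 7.43 to 7.96 after deprivation. Eef2k, the kinase that inhibits elongation factor 2, fell by 0.42 on the log2 scale (SE 0.13, limma, adjusted p = 0.0459), with 5 of 7 deprived mice below the control mean. Without 1 mouse at a time, Eef2k kept its call without control 4 or 9 or sleep-deprived 2 or 6, and lost it for the other 10 mice (adjusted p up to 0.103), as it did without the trend (0.0554) and with the mouse number as a covariate (0.0975). The elongation factor genes Eef1a1 and Eef2 were at -0.023 ± 0.032 and 0.041 ± 0.039.

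**Figure D4:**
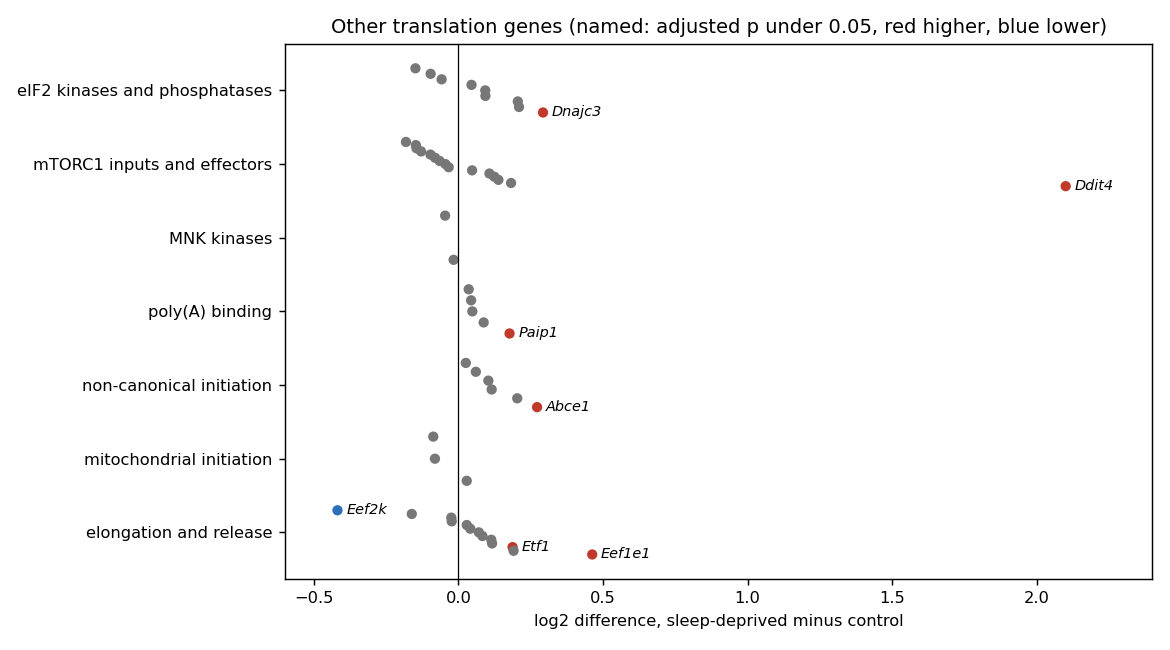
Log2 difference (sleep-deprived minus control) of the 53 other translation genes by list, 1 point a gene; genes with an adjusted p under 0.05 are named and coloured (red higher, blue lower). Ddit4 stands apart at 2.10, and the other named genes lie between -0.42 (Eef2k) and 0.46 (Eef1e1).

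Markers of the cells of the liver were read beside these values, since in whole tissue fewer cells of a type and less RNA per cell cannot be told apart. The mean level of 9 hepatocyte markers, taken on the linear scale and logged, lay between 12.4 and 12.5 in all mice of both groups. Of the 9, 2 were higher, Apoa1 by 0.12 ± 0.034 and Cps1 by 0.11 ± 0.034 (limma, adjusted p = 0.0277 and 0.0417). Of the 10 sinusoidal endothelial markers, 3 were higher, as were 3.88% of all genes. These were Lyve1 (1.13 ± 0.18), Oit3 (0.46 ± 0.094) and Pecam1 (0.29 ± 0.080). Kdr, at -0.18 ± 0.067 (limma, adjusted p = 0.114), was the 1 with a negative difference. The mean level of the 10 ran from 7.31 to 7.65 in controls and from 7.46 to 7.86 in deprived mice. Of 10 stellate markers 1 was higher, Rgs5 by 0.30 (mean level 7.35 to 7.78 and 7.43 to 7.93), and 2 had negative differences. Of 10 Kupffer markers 1 was higher, Cd163 by 0.88 (6.18 to 7.41 and 6.40 to 7.13), and 4 had negative differences. Of 5 cholangiocyte markers 1 was higher, Sox9 by 0.56 (4.21 to 4.54 and 4.43 to 5.26), and 2 had negative differences. Of 8 lymphocyte markers 1 was lower. The 3 neutrophil markers S100a8, S100a9 and Ly6g did not pass, and their mean levels lay under the array medians. The erythroid markers listed had no probe set of their own, so erythroid cells were not assessed. The part of any of these cells in the differences of the initiation factors was not tested.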

How the data were processed

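The authors deposited 1 log2 value per probe set and array, computed by RMA, which corrects background, quantile-normalizes and summarises probes, per the submitters' processing notes, which give no version. Per the labels' protocols, 100 ng of total RNA per sample was labelled with the WT PLUS kit. Software and genome build: not given in the sources used here. RMA compresses differences of dim genes. Depth does not apply to arrays, and 7 per group limit the precision.

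Of 41345 probe sets, 23521 had 1 gene symbol, 1814 several and 16010 were unnamed here. The brightest probe set per gene left 22180 genes, with no filter. Updating symbols by Entrez ID changed 0. Groups came from titles; numbers pair no mice.

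Groups were compared with limma 3.58.1 in R 4.3.3 (eBayes with trend, two-sided, Benjamini-Hochberg over all genes, threshold 0.05). Pairs of related genes were compared by exact permutation. On simulated data (22180 genes) 87% of 100 genes shifted by 0.5 and 100% of 100 shifted by 1 were recovered, with 14 false calls. Both shifts were larger than the difference of any initiation factor gene, so recovery of differences as small as theirs was not tested. Members, lists and rule for named genes (members by complex; called genes in full; up to 4 called per other list) were chosen with earlier results of these data known. Alternatives were eBayes without trend or robust, array weights, a filter on dim genes, averaged or separately tested probe sets, median centring, quantile normalization again, mouse number as a covariate and leaving out each mouse.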

Additional observations from a re-analysis of the deposited data

Results flagged for a closer look

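In 6 of the 94 sets of 7 values (47 genes in 2 groups), 1 mouse lay apart from the others: its gap to the nearest mouse, as a share of the whole range, was over Dixon's limit for 7 samples. Chance alone puts about 1 set in 20 past that limit. In controls these were Eif2b2 in mouse 11 (5.481, nearest 5.769), Eif4a1 in mouse 7 (12.3, nearest 12.51) and Eif4e2 in mouse 7 (6.392, nearest 6.535). In sleep-deprived mice they were Eif3i in mouse 6 (8.244, nearest 8.135), Eif4a1 in mouse 1 (12.76, nearest 12.6) and Eif4e3 in mouse 1 (4.562, nearest 4.976).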

How the results depend on the processing

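Under 23 alternatives Eif1a kept its direction and its call, with log2 differences from 0.30 to 0.43 and adjusted p up to 0.0165. Eif3b kept its direction but lost its call in 7, including eBayes without the trend and the mouse number as a covariate (adjusted p up to 0.0798). The count of initiation factors higher, 2, became 1 without the trend and with the covariate and 5 when only genes at or above the median level were tested, where 1 was lower. It ran from 1 to 4 when each mouse was left out, and the count lower from 0 to 1. Of the other translation genes, 1 was lower, and 0 without the trend or with the covariate and 2 with probe sets averaged, or 0 to 2 when a mouse was left out; the count higher ran from 4 to 7. All genes called numbered 1541 to 1893 without 1 mouse. Eif3a, Eif4g3, Eif2d and Eif1ad passed in 3, 3, 2 and 1 of the 23. Eif1a against Eif1ax kept its call in 16 of 16 alternatives added after seeing the data (exact permutation, adjusted p up to 0.0490). Eif4ebp1 against Eif4ebp2 kept it in 6, not with a further quantile normalization (adjusted p = 0.0857). Both pairs were chosen from these same values. No paired analysis was possible because the groups share no mouse number.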
